A study of Mus musculus with 12 samples.

Results

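The Krüppel-like factors *Klf2*, *Klf3*, *Klf4*, *Klf6*, *Klf10* and *Klf13* and the sphingosine-1-phosphate receptors *S1pr1*, *S1pr4* and *S1pr5* were followed through PD-1+CD44+CD8+ T cells of lupus-prone mice. The 9 genes were taken by symbol from the 3 deposited expression tables, which list 18992 genes in all, and each of the 9 was found in each table. The donors were NZB/W F1 mice, a cross of the NZB and NZW strains that develops lupus nephritis with age, and the cells came from 3 sorts: the spleen of 12-week-old mice (12W spleen), the spleen of 28-week-old mice (28W spleen) and the kidney of 28-week-old mice (28W kidney). The labels name no transgene, deletion or treatment for any group. Expression was measured with the 10x Genomics 5′ v2 kit, which counts transcripts by unique molecular identifiers (UMIs). GEO lists 12 samples, 4 a group, whose titles within a group differ only in a running number. The labels do not say whether these are separate specimens. Each group has 1 table that is not split by sample, so each group was treated as 1 library. No difference has a replicate check and no test was run. The labels of the 28W spleen samples also carry an age of 12 weeks, against their titles, and the titles were followed. How many mice each library holds is not given in the sources used here.

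Sphingosine-1-phosphate (S1P) is high in blood and lymph and low inside tissues, and T cells leave lymphoid organs and tissues along that gradient through S1PR1. KLF2, itself kept on by FOXO1 in resting T cells, drives transcription of *S1pr1*. Activation through the T cell receptor lowers *Klf2* and *S1pr1*, and CD69 pulls S1PR1 protein off the cell surface, so cells low in this pair tend to be held in tissue.

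Gene positions are from GRCm38 with the GENCODE M21 annotation. The 3 libraries held 6481 to 7135 cells in 10, 11 and 12 clusters that the authors made within each library, 33 clusters in all, with a total of 29937384 to 34742303 UMIs. Values are UMIs per 1000000 UMIs of the library or cluster (counts per 1000000, CPM), and all intervals are 95% intervals for counting error only, not for variation between mice. Between 52 and 66 cell barcodes were shared by any pair of libraries, at most 1.02% of a library. The T cell genes *Cd3e*, *Cd3d*, *Cd8a*, *Cd8b1* and *Trac* were detected in each cluster, and their summed level was 3749 to 4599 CPM per library. In 8 of the 33 clusters the summed markers of another cell type were raised, that is at least 200 CPM and at least 10 times the median cluster of that library. Cluster 8 of 28W kidney was led by *Cd79a*, *Ebf1*, *Ms4a1* and *Klf4*, with 2675 CPM of B cell markers beside 1796 CPM of T cell markers. Cluster 12 of 28W kidney was led by myeloid genes, with 8559 CPM of myeloid markers and 999 CPM of T cell markers. It was also raised for endothelial markers, at 363 CPM. The other 6 were cluster 3 of 12W spleen, clusters 8 and 10 of 28W spleen and clusters 2, 7 and 11 of 28W kidney. Kidney cluster 11, raised for erythroid genes only, was led by cell cycle genes such as *Ube2c* and *Birc5*. It had 4224 CPM of T cell markers and 13.7% of kidney UMIs. The cell cycle clusters of the spleens (10 in 12W, 6 in 28W) were not raised, so leaving out raised clusters drops cycling cells of kidney alone. Ratios and counts that the 8 raised clusters moved are also given for the 25 other clusters.

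*Klf2* (ENSMUSG00000055148, chr8:72319033-72321656, plus strand) stood at 746 CPM in 12W spleen (737 to 755), 1133 CPM in 28W spleen (1121 to 1144) and 323 CPM in 28W kidney (316 to 329). The 28W spleen was thus the highest and the kidney the lowest of the 3, and the intervals did not touch. Relative to 28W spleen the kidney level was 0.285-fold (0.279 to 0.292), a log2 ratio of -1.81 after adding 1 CPM to both, and relative to 12W spleen the 28W spleen level was 1.52-fold (1.49 to 1.54). Over clusters the 12W spleen values ran from 59.8 through a median of 752 to 1405 CPM, the 28W spleen values from 371 through 1342 to 2740 CPM and the 28W kidney values from 87.7 through 211 to 1309 CPM. All 12 kidney clusters lay below the median cluster of 28W spleen, and 8 of them lay below its lowest cluster. Cluster 8 held 38.0% of the kidney *Klf2* UMIs (37.0 to 38.9, exact binomial interval) against 9.36% of all kidney UMIs. With the raised clusters left out of all libraries, *Klf2* was at 700.4, 1138 and 232 CPM, and the kidney log2 ratio was -2.29.

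*S1pr1* (ENSMUSG00000045092, chr3:115710433-115715072, minus strand), the egress receptor, was at 136 CPM in 12W spleen (133 to 140.3), 104 CPM in 28W spleen (101 to 108) and 53.2 CPM in 28W kidney (50.6 to 55.9). It was lower at each step from 12W spleen to kidney, unlike *Klf2*, which was higher in 28W spleen than in 12W spleen. The ratio was 0.765-fold (0.732 to 0.800) by age and 0.510-fold (0.480 to 0.541) by organ, with a log2 ratio of -0.96 by organ, just short of a log2 ratio of -1. Cluster values ran from 7.02 to 369 CPM in 12W spleen, from 36.3 to 199 CPM in 28W spleen and from 23.1 to 149 CPM in 28W kidney, with medians of 156, 118 and 43.4 CPM. The highest kidney value was again that of cluster 8, and without it 11 of 11 kidney clusters were below the 28W spleen median, at 78.7 CPM or less. Without the raised clusters the organ log2 ratio was -1.14. It also passed -1 when 28W kidney cluster 5, 8 or 9 or 28W spleen cluster 6 alone was left out, at -1.01, -1.25, -1.004 and -1.18.

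*Klf3* (ENSMUSG00000029178, chr5:64803388-64832901, plus strand), a repressor of the same family, was at 121 CPM in 12W spleen, 137 CPM in 28W spleen and 52.5 CPM in 28W kidney. The spleen libraries were close, and the kidney was 0.384-fold the 28W spleen level (0.363 to 0.407), a log2 ratio of -1.36. The kidney clusters reached at most 104 CPM, and all 12 were below the 28W spleen median of 139.6 CPM. The raised clusters mattered little here, with a log2 ratio of -1.34 without them. By age the log2 ratio of 0.17 became -0.01 without 12W spleen cluster 7.

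**Figure D1:**
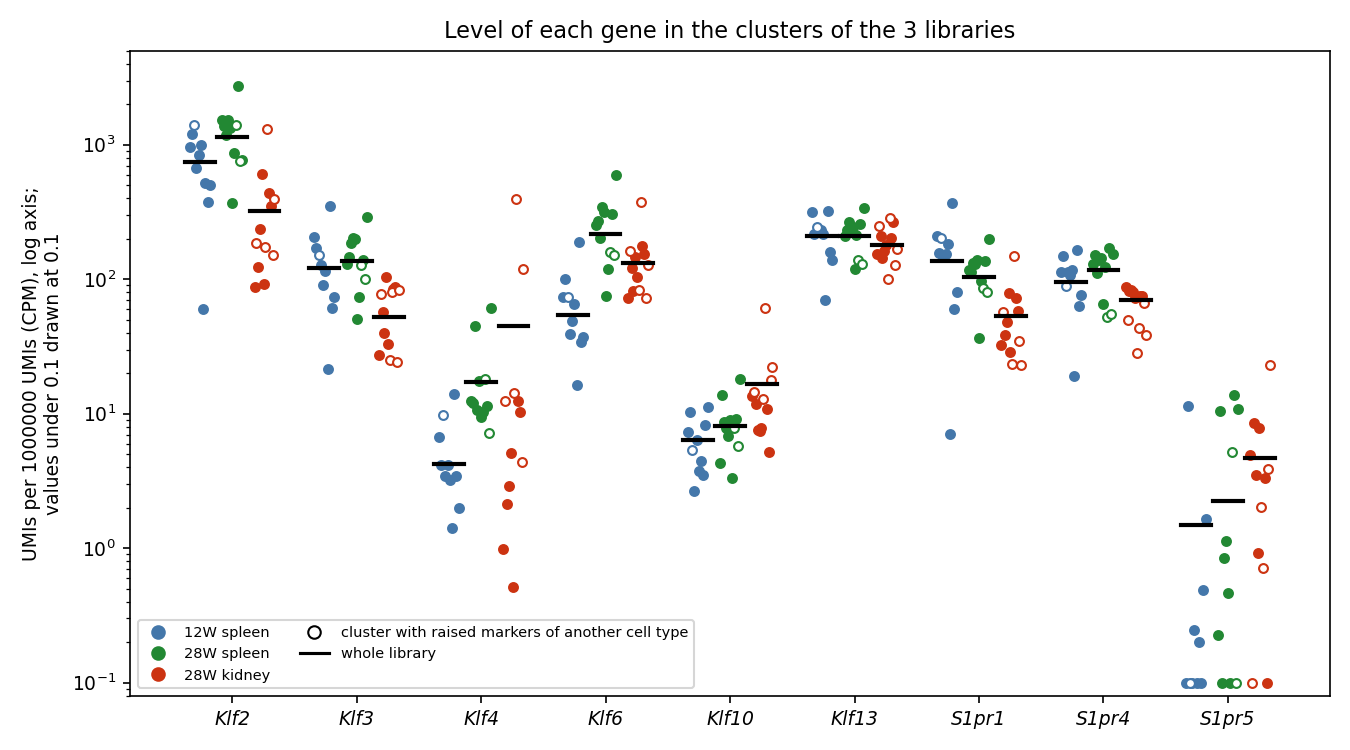
Level of each of the 9 genes (horizontal axis) in CPM on a log axis, 1 point per cluster, coloured by library. Open points are the 8 clusters with raised markers of another cell type, black bars are whole libraries, and values under 0.1 CPM are drawn at 0.1. The 28W kidney bars for *Klf2*, *Klf3* and *S1pr1* lie below both spleen bars, while the kidney bar for *Klf4*, at 44.9 CPM, lies above all but 2 of its 12 cluster points.

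*S1pr4* (ENSMUSG00000044199, chr10:81497747-81500132, minus strand), a receptor largely restricted to haematopoietic cells, was at 96.1 CPM in 12W spleen, 118 CPM in 28W spleen and 70.6 CPM in 28W kidney. The kidney was lowest, at 0.600-fold the 28W spleen level (0.569 to 0.633). Its kidney clusters were the least spread of the 3 receptors, from 28.3 to 88.1 CPM, and all 12 fell below the 28W spleen median of 129 CPM. In the kidney the raised clusters 7, 12, 8 and 2 were the 4 lowest, so their removal moved *S1pr4* the other way from *S1pr1*, to a log2 ratio of -0.55 from -0.73.

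*S1pr5* (ENSMUSG00000045087, chr9:21242912-21248443, minus strand), which in NK cells and effector CD8+ T cells is switched on by T-bet and ZEB2, was near the limit of detection. The 12W spleen library had 52 UMIs of it (1.50 CPM), the 28W spleen library 72 (2.25 CPM) and the kidney library 139 (4.64 CPM), and its mean fell under the 5 CPM minimum set for the comparison of all genes. The kidney level was 2.07-fold that of 28W spleen (1.54 to 2.78). In both spleen libraries its high clusters included those led by cytotoxic genes, while in kidney the pattern was mixed. In 12W spleen, cluster 2, led by *Ccl5*, *S100a6* and *Gzmk*, held 11.4 CPM, and the next was 1.66 CPM. In 28W spleen, cluster 2, led by *Ccl4*, *Ccl5* and *Gzmb*, held 50 of the 72 UMIs and stood at 10.5 CPM. Cluster 9, led by *Ccl5* and *Lmo1*, was at 13.7 CPM from 6 UMIs, and the low-RNA cluster 11 at 10.8 CPM from 3 UMIs. None of the 10 pairs of neighbours in the 28W spleen order differed beyond counting error. In 28W kidney the highest value was 23.1 CPM in cluster 12, raised for myeloid and endothelial markers. Next came 8.59 CPM in cluster 3 and 7.76 CPM in cluster 6, led by *Ifit3* and *Isg15*. Cluster 1, led by *Gzmb*, was at 4.89 CPM, near the library level. In 10 of the 33 clusters no *S1pr5* UMI was found, which allows a level of up to 0.477 CPM in the deepest of them and 10.5 CPM in the shallowest (3 counts). Whether free RNA gives the lowest values was not tested.

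The order of the libraries was inverted for *Klf4* (ENSMUSG00000003032, chr4:55527143-55532466, minus strand), a factor that restrains CD8+ T cell proliferation and is also abundant in myeloid cells. *Klf4* was at 4.26 CPM in 12W spleen (3.601 to 5.004), 17.2 CPM in 28W spleen (15.8 to 18.7) and 44.9 CPM in 28W kidney (42.6 to 47.4). The library values were higher at each step, 4.05-fold by age (3.37 to 4.88) and 2.61-fold by organ (2.36 to 2.88). The kidney value came from few clusters. Cluster 8, with B cell genes, was at 392 CPM and held 81.6% of the kidney *Klf4* UMIs (79.5 to 83.7, exact binomial interval). Cluster 12, raised for myeloid and endothelial markers, was at 118 CPM and held another 9.14% (7.66 to 10.8). The other 10 kidney clusters were between 0.517 and 14.2 CPM. Without the raised clusters *Klf4* was at 3.88, 17.4 and 3.73 CPM, and the organ log2 ratio turned from 1.33 to -1.96. Leaving out kidney cluster 8 alone turned it to -0.85.

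**Figure D2:**
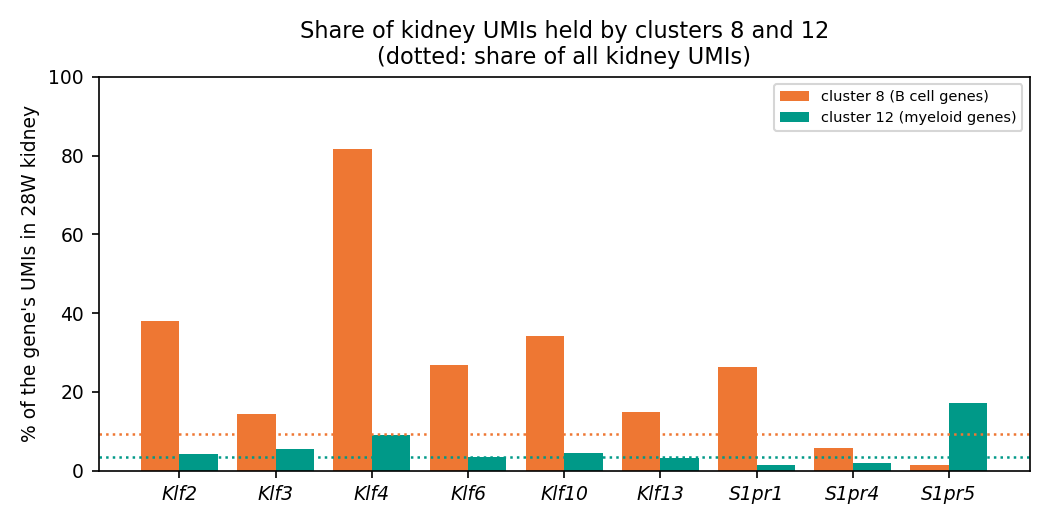
Percent of the 28W kidney UMIs of each gene that lay in cluster 8 (B cell genes) and cluster 12 (myeloid genes, also raised for endothelial markers), with dotted lines at the share of all kidney UMIs in each cluster. Cluster 8 held 9.36% of all kidney UMIs but 81.6% of those of *Klf4*, 38.0% of *Klf2*, 34.2% of *Klf10*, 26.9% of *Klf6* and 26.3% of *S1pr1*, while cluster 12 held 17.3% of the *S1pr5* UMIs.

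Several values stood beside *Klf4* in kidney cluster 8. The B cell markers *Cd79a*, *Cd79b*, *Ms4a1* and *Ighm* were at 1074, 292, 225 and 983 CPM there, against medians over the kidney clusters of 1.56, 22.9, 0.810 and 124 CPM. *Cd8a* was at 168 CPM against a kidney median of 719 CPM, and the sort marker *Pdcd1*, which encodes PD-1, was at its lowest kidney value of 24.6 CPM. A list of 14 genes known to respond to tissue dissociation summed to 12563 CPM in cluster 8, the highest of all 33 clusters, where the other kidney clusters ranged from 2022 to 5182 CPM. In 28W spleen cluster 10, which also carried B cell genes (4348 CPM), *Klf4* was at 7.23 CPM from 5 UMIs (2.35 to 16.9). This was the lowest value of that library, but its interval held the median cluster of 12.0 CPM. That spleen cluster was also raised for myeloid markers, at 1366 CPM, and its dissociation list summed to 3014 CPM. The part of other cell types or of dissociation in the *Klf4* level was not tested.

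The promoters of *Klf2* and *Klf4* are shown because the library levels of both were past 2-fold between 28W spleen and kidney, in opposite directions over all clusters, although *Klf4* turned to a log2 ratio of -1.96 without the raised clusters. Both are reference sequence of the C57BL/6J genome from RefSeq (GRCm38.p6), not of the NZB or NZW strains. The *Klf2* stretch is chr8:72318812-72319032 on the plus strand, and the *Klf4* stretch is chr4:55532476-55532725 on the minus strand, and both run 5′ to 3′ and stop before the gene start of the GENCODE annotation. The search covered the MEF2 element, the site of MEF2 factors, which activate *Klf2* in other cell types, the letters CACCC, the core bound by Krüppel-like factors, and the forkhead letters GTAAACA, each on both strands, and matches are in capitals.
Klf2: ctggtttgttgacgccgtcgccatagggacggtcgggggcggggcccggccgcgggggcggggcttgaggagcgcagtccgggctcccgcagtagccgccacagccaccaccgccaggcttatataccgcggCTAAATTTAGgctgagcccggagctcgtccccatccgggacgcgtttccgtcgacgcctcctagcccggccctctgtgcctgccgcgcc
Klf4: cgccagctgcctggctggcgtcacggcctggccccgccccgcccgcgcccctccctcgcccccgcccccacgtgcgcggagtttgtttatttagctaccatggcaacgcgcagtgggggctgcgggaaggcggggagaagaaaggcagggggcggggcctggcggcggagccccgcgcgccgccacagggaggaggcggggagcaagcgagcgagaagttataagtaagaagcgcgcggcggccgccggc
The *Klf2* stretch of 221 bases held 1 MEF2 element and neither of the other 2 motifs. The *Klf4* stretch of 250 bases held none of the 3. Of the 32851 mouse promoters in the RefSeq table, cut to the same 250 bases before the start, 2.92% held a MEF2 element, 52% held CACCC and 3.17% held GTAAACA. *Klf3*, in the 117 bases before its annotated gene, held 2 CACCC matches, *Klf13* and *S1pr4* held 1 each, *S1pr5* held 2 and *Klf6* held none. GTAAACA was in none of the 7 promoters available. These are matches of letters, not measured sites.

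*Klf6* (ENSMUSG00000000078, chr13:5861482-5870394, plus strand), an early response factor, was at 54.4 CPM in 12W spleen (52.0 to 56.9), 218 CPM in 28W spleen (213 to 223) and 132 CPM in 28W kidney (128 to 136). The 28W spleen level was 4.002-fold that of 12W spleen (3.80 to 4.21), a log2 ratio of 1.98, and the kidney was 0.604-fold 28W spleen (0.581 to 0.628). All 11 clusters of 28W spleen were above the 12W spleen median of 57.0 CPM, and 7 of them were above its highest cluster, the low-RNA cluster 8 at 189.6 CPM. In 28W spleen the highest cluster was also one of low RNA content, cluster 11, with 599.5 CPM and 6.64% mitochondrial UMIs. The 28W spleen difference was as large without the raised clusters, at a log2 ratio of 2.03, and ranged from 1.82 to 2.20 when 1 cluster at a time was left out. *Klf6* by organ passed 2-fold, among single clusters left out, only without kidney cluster 8, at -1.03 in place of -0.72.

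A list of 14 genes that respond to tissue dissociation is set beside *Klf6* and *Klf4*. Their summed level was 1689 CPM for 12W spleen, 3510 CPM for 28W spleen and 4018 CPM for kidney. The kidney sum includes cluster 8 at 12563 CPM, against 2022 to 5182 CPM in the other kidney clusters. The order of kidney and 28W spleen depends on that cluster. By age 8 of 14 were past 2-fold higher, among them *Fos* at a log2 ratio of 1.89, *Fosb* at 1.93 and *Junb* at 1.52. *Nr4a1* was lower at -1.42, and the median of the list was 1.21. Of the 8900 genes at the 5 CPM minimum, 2.03% were higher by age and 0.764% lower. By organ 4 were higher (*Atf3*, *Hspa1a*, *Hspa1b* and *Nr4a1*), led by the heat shock gene *Hspa1a* at 4.69, and *Fos* was lower at -1.23. Of the 8900 genes, 4.42% were higher by organ and 1.42% lower. *Klf6* shared its order, highest in 28W spleen, with *Fos*, *Fosb*, *Junb*, *Ier2*, *Dusp1* and *Zfp36*. Over clusters, *Klf6* and the summed list correlated at r of 0.867 over the 10 clusters of 12W spleen, 0.854 over the 11 of 28W spleen and 0.966 over the 12 of kidney. The kidney value includes cluster 8, the highest of that library in both, and the clusters of a library share its handling. Other genes correlated with the list as closely, with r of 0.949 for *Klf4* in 12W spleen and of 0.918 for *S1pr1* and 0.865 for *Klf3* in 28W spleen. Correlations over the clusters of 1 library do not bear on a difference between libraries. Only for kidney do the study's methods describe digestion with collagenase. The part of handling in these levels was not tested.

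**Figure D3:**
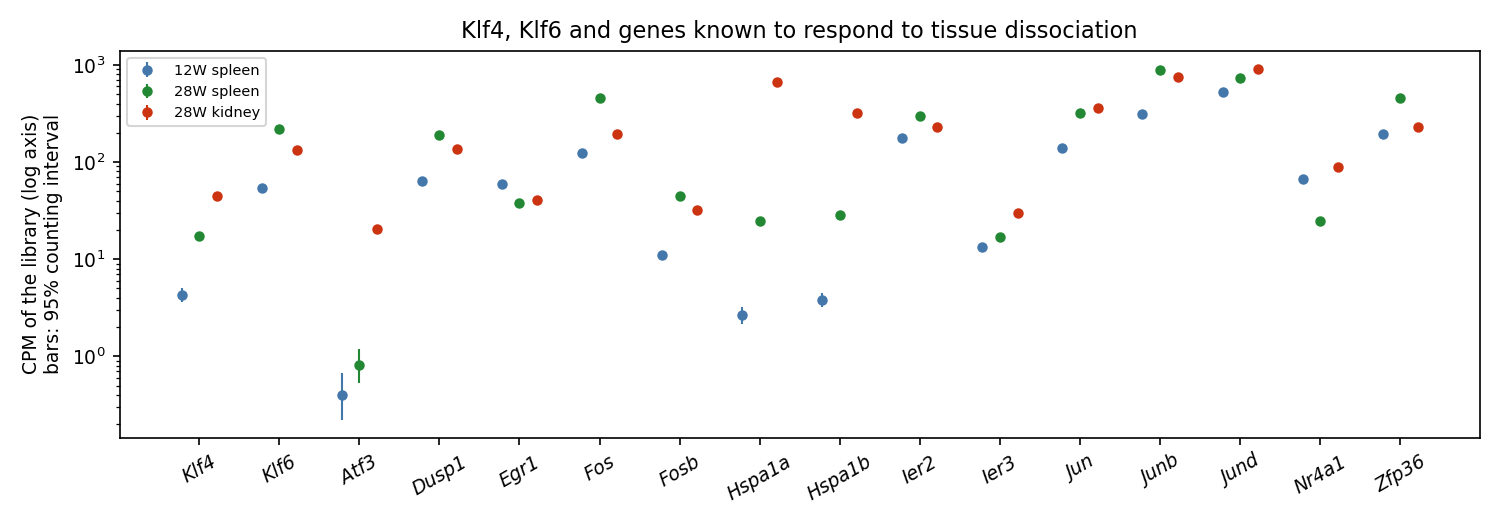
CPM per library on a log axis for *Klf4*, *Klf6* and the 14 dissociation genes, with 95% counting intervals as bars. *Klf6* was highest in 28W spleen, at 218 CPM, as were *Fos*, *Fosb*, *Junb*, *Ier2*, *Dusp1* and *Zfp36*, while *Hspa1a*, *Hspa1b* and *Atf3*, among others, were highest in 28W kidney, as was *Klf4*.

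*Klf10* (ENSMUSG00000037465, chr15:38291463-38300706, minus strand), a target of TGF-β signalling, was at 6.36, 8.15 and 16.7 CPM, which placed the kidney highest. The kidney level was 2.05-fold that of 28W spleen (1.76 to 2.39), with a log2 ratio of 0.95. Cluster 8, at 61.0 CPM, held 34.2% of the kidney UMIs of *Klf10* (30.05 to 38.5), and the log2 ratio was 0.29 without the raised clusters. It crossed 2-fold, at 1.001 to 1.11, when any of kidney clusters 1, 3, 4, 5 and 6 or 28W spleen cluster 2 was left out.

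*Klf13* (ENSMUSG00000052040, chr7:63886351-63938915, minus strand), which in T cells is known for the late induction of *Ccl5*, varied least between libraries, with 210.4, 208 and 179 CPM. The spleen ratio was 0.989-fold (0.956 to 1.02), so a difference by age was not detectable at this depth, and its sign followed the scaling, at a log2 ratio of -0.02 by library total and 0.08 by the median gene. The kidney was 0.860-fold 28W spleen (0.830 to 0.892). *Klf13* overlaps the protein-coding gene *E030018B13Rik* on the opposite strand (GRCm38, GENCODE M21), and the strand setting of the counting is not given in the sources used here.

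**Figure D4:**
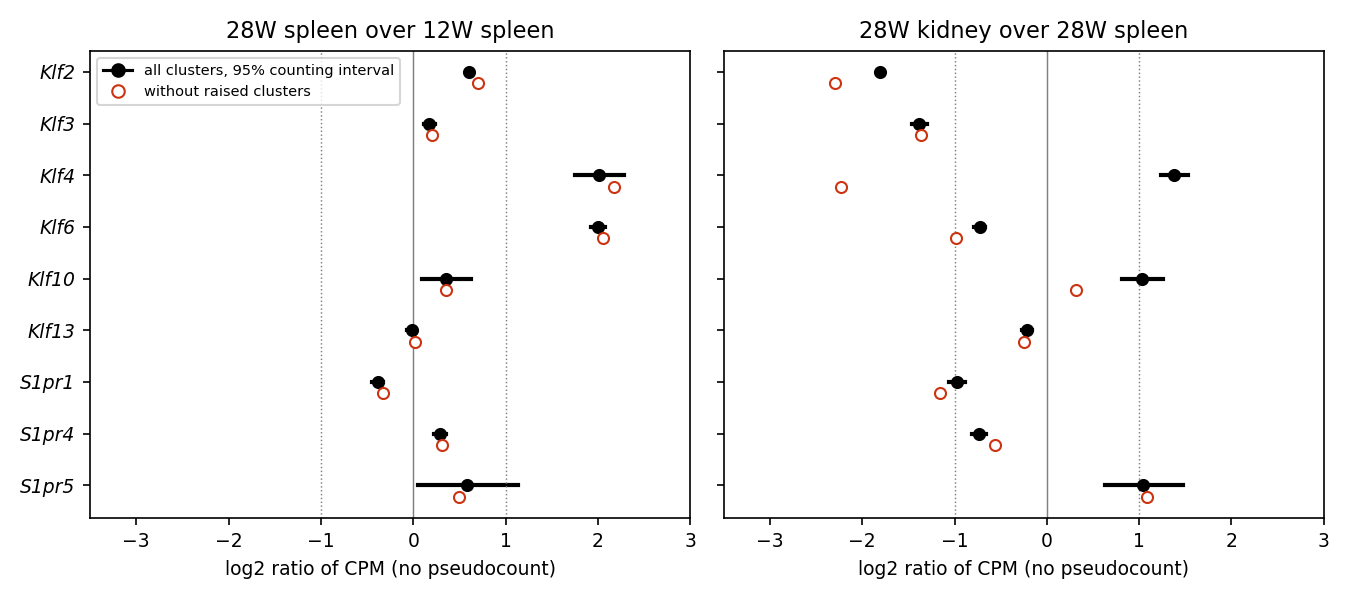
Log2 ratio of library CPM, without a pseudocount, of 28W spleen over 12W spleen (left) and of 28W kidney over 28W spleen (right) for the 9 genes. Black points are all clusters with 95% counting intervals, open red points leave out the 8 raised clusters, and dotted lines mark 2-fold. *Klf4* and *Klf6* lie past 2-fold on the left, and on the right *Klf2* and *Klf3* stay past 2-fold on both counts while *Klf4* changes side. *Klf10* and *S1pr5*, at 2.05-fold and 2.07-fold, lie just past the line here because no pseudocount was added.

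Of the 8 genes that reached the minimum of 5 CPM, 2 were past 2-fold higher by age (*Klf4* and *Klf6*) and 0 were lower, where 2.03% of the 8900 genes at that minimum were higher and 0.764% lower. By organ 1 was higher (*Klf4*) and 2 were lower (*Klf2* and *Klf3*), where 4.42% of the 8900 were higher and 1.42% lower. Without the raised clusters 0 were higher and 4 were lower by organ (*Klf2*, *Klf3*, *Klf4* and *S1pr1*), and by age the count stayed at 2 higher and 0 lower. No share of all genes is given for that setting. Scaling by the median gene, a library total without receptor, immunoglobulin, mitochondrial and ribosomal protein genes, and equal weight for each cell gave 1 higher and 3 lower by organ, *S1pr1* being the third. Of the 8900 genes, 357, 322 and 302 were higher by organ in these settings, in that order, and 146, 190 and 129 were lower. In the main setting 393 were higher and 126 lower. The median log2 ratio of the 8 was 0.30 by age beside -0.09 for all genes, and -0.73 by organ beside 0.06. Both comparisons use the 28W spleen library, so their values are not independent. Fewer cells with a transcript and less transcript per cell cannot be told apart in these summed values.

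Genes around the pathway were taken from fixed lists. Of the other Krüppel-like factors only *Klf7* and *Klf16* reached the minimum, and neither was past 2-fold in either comparison. Among genes of S1P sensing, synthesis and breakdown, *S1pr2*, *Sphk2*, *Sgpl1* and *Sgpp1* did so, and again 0 of 4 were past 2-fold. *S1pr2*, a receptor that opposes migration, was at 3.71, 6.96 and 9.55 CPM, in rising order as for *S1pr5*. Among the regulators and homing genes described here none was past 2-fold by age. *Ccr7*, which guides cells into lymph nodes, was at 309, 181 and 78.2 CPM, past 2-fold lower by organ with a log2 ratio of -1.20. *Foxo1*, upstream of *Klf2*, was at 182, 158 and 113 CPM. *Cd69*, which opposes S1PR1, was at 148, 217 and 122 CPM, highest in 28W spleen and not in kidney. *Tbx21*, which encodes T-bet, and *Zeb2* had the same order of libraries as *S1pr5*, at 19.2, 37.5 and 73.6 CPM and at 3.74, 7.40 and 15.7 CPM. *Gnai2* and *Grk2*, which encode the G protein that S1PR1 signals through and the kinase that desensitises it, had log2 ratios between 0.03 and 0.15.

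Within libraries, *Klf2* and *S1pr1* had a wide range over clusters. In 12W spleen the log2 range from the lowest to the highest cluster was 4.34 for *Klf2* and 4.48 for *S1pr1*, wider than for 99.2% and 99.4% of the 8900 genes, whose median range was 1.53. The shares were 95.1% and 84.6% in 28W spleen and 96.9% and 87.1% in 28W kidney, where raised cluster 8 was highest for both. The highest *S1pr1* value of 12W spleen was in low-RNA cluster 8, at 369 CPM from 105 UMIs, and the next was 208 CPM. In 12W spleen *Klf2* and *S1pr1* were both lowest in cluster 7, led by *Xcl1*, *Ccl4*, *Tnfrsf9* and *Srm*, genes of activated T cells. That cluster had 59.8 CPM of *Klf2*, 7.02 CPM of *S1pr1*, 21.5 CPM of *Klf3*, 69.8 CPM of *Klf13*, 16.4 CPM of *Klf6* and 19.1 CPM of *S1pr4*, the lowest 12W spleen value of each. It was also among the richest in RNA, with 13406 UMIs per cell. The next lowest *Klf2* values were 378 CPM in cluster 9, led by *Nrgn* and *Eno3*, and 502 CPM in cluster 10, led by cell cycle genes. The highest were 1405 CPM in raised cluster 3 and 1201 CPM in cluster 2, led by *Ccl5*, *S100a6* and *Gzmk*. Of the 9 pairs of neighbours in the order of *Klf2* levels, 2 did not differ beyond counting error.

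In 28W spleen the lowest *Klf2*, *S1pr1*, *Klf3*, *Klf6* and *Klf13* values were in cluster 6, led by the cell cycle genes *Pclaf* and *Birc5*, with 371 CPM of *Klf2* and 36.3 CPM of *S1pr1*. The other clusters were closer together than in 12W spleen, and 6 of the 10 pairs of neighbours in the *Klf2* order did not differ beyond counting error. The exception was cluster 9, led by *Ccl5*, *Lmo1*, *Ccl4* and *Ccl3*. *Klf2* was among its 10 leading genes at 2740 CPM, against 1518 CPM in the next cluster, while its *S1pr1* level of 137 CPM was within the range of clusters 1 to 5. *Klf4* was raised there in cluster 3, led by *Sox4* and *Myb*, at 45.1 CPM, and in the low-RNA cluster 11 at 61.4 CPM, against a median of 12.0 CPM. These values did not differ beyond counting error from each other.

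In 28W kidney, *Klf2* and *S1pr1* were higher in clusters 5 and 9 than in clusters 1, 3 and 6. The latter had the highest sums of the cytotoxic genes *Gzma*, *Gzmb*, *Gzmk*, *Prf1*, *Nkg7* and *Ccl5*, at 15433, 15121 and 20136 CPM. Clusters 5 and 9 still had 7646 and 7888 CPM of them. Apart from cluster 8, *Klf2* was highest in cluster 5, led by *Il7r*, *Tdrp* and *Dapl1* and with *Klf2* and *Klf3* among its 10 leading genes, at 609.6 CPM, and in cluster 9, led by *Il7r* and *Nsg2*, at 439 CPM. *S1pr1* followed the same order, with 78.7 and 72.2 CPM. Clusters 10 and 4 were intermediate. Cluster 10, led by *Gm42418* and *Rnf213*, had 351 CPM of *Klf2* and 58.1 CPM of *S1pr1*. Cluster 4, led by *Tcrg-V6*, *Ltb4r1* and *Cd163l1*, had 234 CPM of *Klf2* and 48.0 CPM of *S1pr1*. The lowest *Klf2* values were 87.7 CPM in cluster 1, led by *Gzmb* and *S100a4*, 92.6 CPM in cluster 6, led by the interferon-induced genes *Ifit3* and *Isg15*, and 122 CPM in cluster 3. *S1pr1* stood at 32.3, 29.0 and 38.7 CPM in the same clusters. Raised cluster 11, led by cell cycle genes, was next at 150 CPM of *Klf2*, with 34.4 CPM of *S1pr1*. *S1pr4* did not share the order of *Klf2*, with 88.1 CPM in cluster 1 and 81.0 CPM in cluster 5. Of the 11 pairs of neighbours in each kidney order, 5 for *Klf2*, 10 for *S1pr1*, clusters 5 and 9 among them, and 11 for *S1pr4* did not differ beyond counting error.

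**Figure D5:**
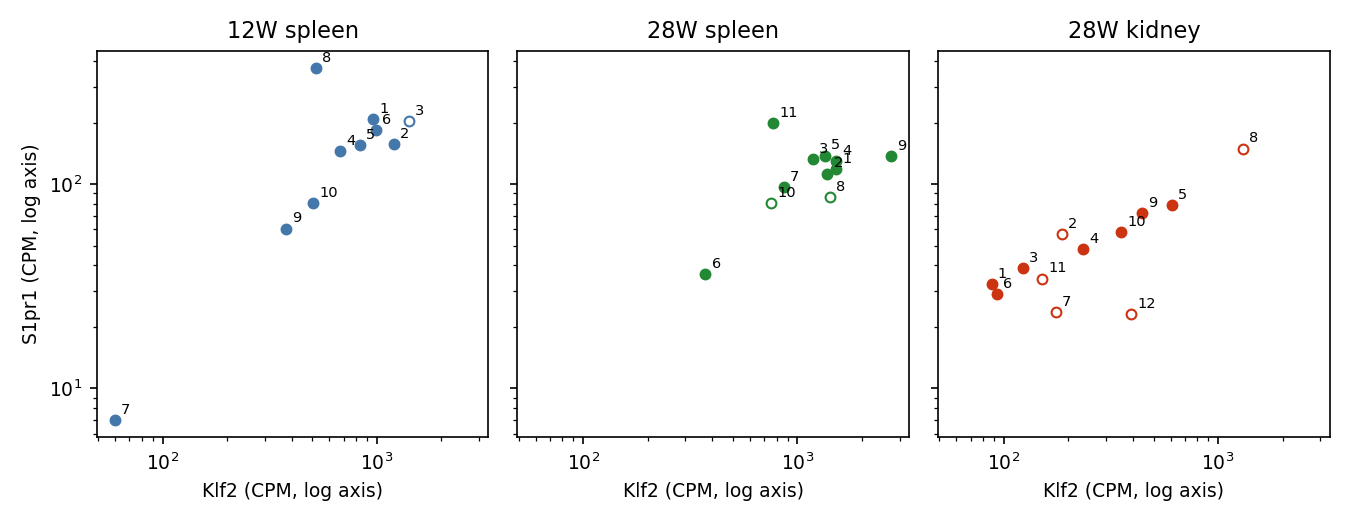
*S1pr1* against *Klf2* in CPM, both on log axes, with 1 numbered point per cluster in each library and open points for the raised clusters. In 28W kidney the 7 filled points lie close to a line from cluster 1 (87.7 and 32.3 CPM) to cluster 5 (609.6 and 78.7 CPM), while in 28W spleen most points sit together and cluster 6 is apart at the lower left.

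Over the clusters of a library, *Klf2* and *S1pr1* had a Pearson r of log2(CPM + 10) of 0.859 over the 10 clusters of 12W spleen, 0.612 over the 11 of 28W spleen and 0.779 over the 12 of 28W kidney. Without the raised clusters the kidney value was 0.989 over 7 clusters and the 28W spleen value 0.633 over 9. *Klf13* and *Klf3* correlated with *S1pr1* in spleen at least as closely as *Klf2* did, with r of 0.968 and 0.947 in 12W spleen and of 0.903 and 0.904 in 28W spleen. *S1pr1* and *S1pr4* had r of 0.952, 0.733 and 0.14 in the 3 libraries. In 12W spleen both were lowest in cluster 7 and highest in low-RNA cluster 8. In kidney *S1pr4* ran only from 72.4 to 88.1 CPM over the 7 unraised clusters, which left r little spread to follow. Against the summed cytotoxic genes, *Klf2* had r of 0.633 and 0.757 in the younger and older spleen but -0.538 in kidney, and the kidney value was -0.947 over the 7 unraised clusters. The clusters were built by the authors from the same genes and share a library, so these values are descriptions.

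Across all 33 clusters, after centring on each library, the genes whose levels were most like those of each gene were taken from 5516 genes. For *Klf2* these were *Socs3* (r of 0.848), *Rflnb* (0.825) and *Cirbp* (0.807), and *Rflnb* came first over the 25 unraised clusters, at 0.929. For *S1pr1* they were *Rasa3* (0.938), *Ripor2* (0.925) and *4930523C07Rik* (0.890), and *Rasa3* and *Ripor2* were also the 2 most like *Klf3*. *Klf6* was most like *Gpr132* (0.938), *Klf13* most like *Cyth1* (0.932), and *S1pr4* most like *Selplg* (0.932) and *Itgb7* (0.909), which encode adhesion molecules. *Klf4* was most like *Dusp1* (0.897) and *Klf10* most like *H3f3b* (0.785), but over the unraised clusters they ranked 6 and 53. For *S1pr5*, first came *Ap1s2* (0.732) over all clusters and *Gzmk* (0.894), *Fasl* (0.864) and *Nkg7* (0.849) over the unraised clusters, genes of cytotoxic cells. Over all clusters *Gzmk*, *Fasl* and *Nkg7* had r of 0.555, 0.480 and 0.439 and ranked 33, 104 and 190. The *S1pr5* values rest on few UMIs, with none in 10 of the 33 clusters.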

How the data were processed

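PD-1+CD44+CD8+ T cells of 12W spleen, 28W spleen and 28W kidney were profiled by single-cell RNA sequencing. The 12 listed samples are covered by 1 table per group, treated as 3 libraries (median UMIs per cell 3853, 4128 and 3501). The submitters' notes name Cell Ranger 2.1.1 and R 3.6.1, while the study's methods name another Cell Ranger version, with GRCm38; the annotation release is not given in the sources used here. The authors deposited a cluster number for each cell and, per gene and cluster, a score that is a mean UMI count scaled to the median UMIs per cell of the library. Fold changes and adjusted p-values of the authors were not used. Each column of these deposited scores holds whole multiples of 1 step, and division by it gave whole UMIs for 100% of values within 0.001. UMIs were summed to CPM, since the 3 tables were normalized separately.

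The members and gene lists were chosen with earlier results of these data known. The genes named are the 9 members, fixed lists of other Krüppel-like factors, S1P genes, regulators and homing genes and dissociation genes, and for each member the 3 genes with the highest r among genes of at least 20 CPM, V, D and J segments left out; genes that lead a cluster are the 10 highest by fold. Some listed genes are not reported here. A list's call is a log2 ratio of at least 1 or at most -1 after adding 1 CPM, which understates the change of low genes, among genes with a mean of at least 5 CPM over the libraries. Intervals are exact Poisson limits for 1 count and exact conditional binomial limits for a ratio of 2 counts. Low-RNA clusters are the 4 with fewer UMIs per cell than the library mean divided by 3. Cells were not reclustered, and doublets were not called, since the tables hold no single cells. Scripts used Python 3.11.15, numpy 2.4.6, pandas 2.3.3, scipy 1.17.1 and matplotlib 3.10.9, and were tested on simulated data. Alternatives changed the scaling, the pseudocount, the weighting and the clusters included.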

Additional observations from a re-analysis of the deposited data

How the results depend on the processing

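With 1 library per group, no variation between mice was measured, and the depth limits *S1pr5* (52 to 139 UMIs) and *Klf4* in 12W spleen (148 UMIs) most. No paired analysis was possible because the tables do not split a group by sample. The count past 2-fold by age went from 2 to 1 with a pseudocount of 10 CPM, where *Klf4* had a log2 ratio of 0.93. By organ, leaving out 1 cluster at a time gave 3 to 5 genes past 2-fold, the highest without kidney cluster 5. No share of all genes is given for these counts. The organ median of -0.73 was -0.89 with receptor, immunoglobulin, mitochondrial and ribosomal protein genes left out of the total, -0.85 with each cell weighted the same, -1.06 without the raised clusters, -0.95 without kidney cluster 8 and 28W spleen cluster 10 (chosen after seeing the data), and -0.94 to -0.65 with 1 cluster at a time left out. *Klf4* by organ reversed to -1.96 without the raised clusters, to -0.87 without kidney cluster 8 and 28W spleen cluster 10, and to -0.85 without kidney cluster 8 alone, since those clusters held most of its kidney UMIs. The *Klf2* and *Klf3* organ ratios stayed past 2-fold, lower in kidney, in each alternative run, with ranges over single clusters left out of -2.35 to -1.61 and -1.57 to -1.23. Scaling by the median gene moved the median of all genes by age from -0.09 to 0.00 and by organ from 0.06 to 0.00. Leaving out the low-RNA clusters moved none of the 18 ratios by more than its counting error.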
